A study of Homo sapiens with 27 samples.

Results

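Marked C and T sites are the positions that O6-MeG-seq reported at a cytosine or a thymine, bases that cannot carry the lesion the assay is built to find. They were taken as all lines of the deposited site lists on chromosomes 1 to 22 whose base was C or T and whose score was 30 or more. There were 34920456 such sites, 12386759 at C and 22533697 at T, among 115855328 autosomal sites of any base with that score and 149160252 sites in all. They made up 30.1% of the autosomal sites that passed the score. Wherever a site fell in a RefSeq promoter window, the listed base equalled the reference base on its strand (100% of 516149 sites of all 4 bases). This match checks how position and strand were read, and not what the assay marked there.

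The 27 libraries came from LN-229, a glioblastoma cell line, and fell into 9 groups of 3. One line had been transfected with MGMT and the other was its transfection control, called WT in the labels. Both lines were given 1 mM temozolomide (TMZ), or 1% DMSO as its solvent. Dosing was single or was done 3 times, with 4 h between doses, and cells were harvested for DNA at 24 h from the start. The ninth group was purified DNA exposed to 1 mM TMZ without cells (naked DNA), with replicate 1 made from non-transfected WT cells, replicate 2 from WT and replicate 3 from MGMT-transfected cells. Whether each line is 1 clone is not given in the sources used here.

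TMZ is an alkylating drug that puts methyl groups on DNA, among them the O6 position of guanine, which then tends to pair with thymine. MGMT is the repair protein that takes this methyl group off and is used up in doing so. In the assay an antibody enriches fragments with O6-methylguanine, and a high-fidelity polymerase that stalls at the lesion marks its place. Sites at C and T are therefore treated here as background of the assay, over which the G signal is read. What gave rise to each mark was not tested.

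Sequences are shown first for recurrent positions that end in a shared motif. Within 33725 autosomal RefSeq promoter windows of 300 bases (GRCh38.p14), 70 C and T positions were marked in 3 or more of the 24 cell libraries, and 33 of these were T. At 7 of the 33 the marked T was the last letter of CCGATCT, and the other 63 of the 70 did not end this motif. Among all 3684863 T positions of the windows, both strands counted, 255 end this motif (0.00692%). The 7 windows of 21 bases follow, 5′ to 3′ on the marked strand with the motif in capitals. Common Illumina adapters end in the same letters. The adapters of these libraries are called custom in the labels, and their sequence is not given in the sources used here.
ADGRL2, chr1:81306144-81306164, plus strand: ctctCCGATCTcgtgtctgtt
LOC124904228, chr1:98045456-98045476, plus strand: acttCCGATCTggaagttccg
LINC01956, chr2:118836324-118836344, minus strand: gattCCGATCTtttcccagat
SHISAL2B, chr5:64690500-64690520, minus strand: tcttCCGATCTgggctctggc
FBN2, chr5:128538389-128538409, minus strand: agtcCCGATCTctcccttact
ZFP37, chr9:113056814-113056834, minus strand: cctcCCGATCTaattgtccca
SIVA1, chr14:104752998-104753018, plus strand: acccCCGATCTctccctcggc

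The T in the ADGRL2 window, at chr1:81306154, was marked in 6 of 12 solvent and 3 of 12 TMZ cell libraries, the most of any promoter position. The other 6 positions were marked in 3 or 4 cell libraries each, with solvent and TMZ libraries among them at every position. Some libraries hold the same sites, as given below, and these counts do not allow for that. Counted over libraries, 24 of 14959 promoter T sites of solvent libraries ended the motif (0.16%), 25 of 26879 of TMZ cell libraries (0.093%) and 4 of 8107 of naked DNA (0.0493%). The motif was looked for after the recurrent positions had been read, and those 7 positions supplied 15 of the 24 and 15 of the 25. Over distinct T positions marked in at least 1 cell library, 23 of 40839 ended the motif, 8.14 times the share among all promoter T positions. Without the 7 it was 16 of 40832, or 5.66 times. Its part in the other results was not tested.

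A second set of sequences shows 3 whole windows with recurrent background. In all, 6 of the windows held a C or T position marked in 3 or more solvent libraries, and none held a second one. Ties were broken by the number of positions marked in at least 1 solvent library, and then by the marks at those positions summed over solvent libraries, which put ADGRL2 before CD163L1. Capitals mark each C or T of the printed strand that at least 1 solvent library marked.
LOC124904957, chr20:64269649-64269948, plus strand: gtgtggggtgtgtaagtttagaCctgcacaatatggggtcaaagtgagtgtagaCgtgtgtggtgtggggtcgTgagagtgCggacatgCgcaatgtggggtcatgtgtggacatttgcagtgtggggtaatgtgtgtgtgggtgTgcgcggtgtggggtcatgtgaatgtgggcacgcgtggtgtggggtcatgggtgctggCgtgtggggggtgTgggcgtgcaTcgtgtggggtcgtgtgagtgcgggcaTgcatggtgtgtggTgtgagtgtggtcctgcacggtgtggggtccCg
LOC107985561, chr22:32333743-32334042, minus strand: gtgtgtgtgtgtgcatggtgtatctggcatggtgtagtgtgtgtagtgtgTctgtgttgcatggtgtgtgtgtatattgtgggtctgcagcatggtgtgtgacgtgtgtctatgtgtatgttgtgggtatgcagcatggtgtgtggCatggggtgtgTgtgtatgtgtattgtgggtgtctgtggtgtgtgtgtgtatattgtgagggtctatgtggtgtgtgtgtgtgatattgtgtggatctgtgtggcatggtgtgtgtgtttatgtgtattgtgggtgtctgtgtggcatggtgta
ADGRL2, chr1:81305882-81306181, plus strand: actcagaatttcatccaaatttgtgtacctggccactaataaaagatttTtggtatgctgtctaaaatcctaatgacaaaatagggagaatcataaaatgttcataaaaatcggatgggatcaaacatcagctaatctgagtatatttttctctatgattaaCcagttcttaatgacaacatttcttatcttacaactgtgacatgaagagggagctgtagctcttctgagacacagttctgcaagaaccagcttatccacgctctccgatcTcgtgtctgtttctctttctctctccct

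The LOC124904957 and LOC107985561 windows are made up largely of G and T, and each had 21 positions marked in solvent libraries. In LOC124904957, 12 lay on the printed strand and 9 on the other, whereas in LOC107985561 3 lay on the printed strand and 18 on the other. The ADGRL2 window, which starts the gene of an adhesion receptor, had 4. The median promoter window had 1.

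The third set shows sites that TMZ libraries had and solvent libraries lacked. Of 100129 C or T positions marked in promoter windows by any cell library, 6 were marked in 3 TMZ and no solvent library and 4 in 3 or more solvent and no TMZ library. TMZ libraries held more promoter sites, as the T counts above show, and the difference was not tested. Of the 6, 2 had a G marked in naked DNA 1 or 2 bases to the 5′ side, against 0 of the 4 and 2199 of all 100129. These shares were not tested. Both of the 2 had the G directly 5′ of them, and 3 TMZ libraries was the most at any such position. The capitals give that G and the marked base.
BAIAP2-DT, chr17:81034953-81034973, minus strand, marked T: cattggtggGTtccggagaag
ESRRG, chr1:217089816-217089836, minus strand, marked C: ggcgctccgGCtagccgtggg

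Libraries differed in depth, and some held the same sites. C and T sites per library ran from 278153 to 2123131, and a library's share of C and T had a 95% Wilson half-width of at most 0.127 percentage points, counting error only. Sites were split evenly between the strands, with at most 50.3% of a library's sites on the plus strand. At the score limit, 588198 C and T sites had a score of 30 to 32 and 329770 one of 27 to 29. Between 38.9% and 85.7% of a library's C and T sites passed the limit. Libraries fell into 5 sets by the C and T sites they had in common (over 1.6 times the median of 351 pairs, after scaling to both sizes). The first set held replicate 1 of all 4 groups with 1 exposure and replicate 1 of naked DNA. There the solvent library of MGMT-transfected cells had 22.8% of its C and T sites in common with the TMZ library of the same cells, 301 times the median; the median pair had 0.157% in common. Naked DNA replicate 1, one of the 3 sources of reference guanines, held 13.3% of the sites of the WT solvent library of this set and 11.5% of those of the MGMT one. Whether the libraries of this set were mixed was not tested. The second set joined replicate 2 of the single-exposure groups to replicate 1 of the groups exposed 3 times. In the third set were replicate 3 of the single-exposure groups, replicate 2 of the groups exposed 3 times and, of their replicate 3, the TMZ libraries alone. Solvent libraries of that replicate 3 formed the fourth set, and naked DNA replicates 2 and 3 the fifth. The solvent library of MGMT-transfected cells in the first set stood apart, with 34.5% of its sites at C or T against 46.8% to 53.6% in the other 11 solvent libraries. Of its C and T sites 38.9% passed the score limit, the lowest of any library, against 64.2% of its G sites. Its C and T share thus depends on that limit. The series' design text calls the replicates biological. Some results are given below also without replicate 1 after 1 exposure and replicate 1 of naked DNA. The offsets of T and of C read apart and the promoter neighbours are among those that are not.

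Most C and T sites were seen once. Of 33952982 distinct positions, 97.3% were marked in 1 library, 33735 in 3 or more, 467 in 6 or more and 41 in 10 or more. Among the last, 29 were T and 12 C, and 12 lay in protein-coding genes. Of the 41, 15 lay between 46387892 and 46394928 on chromosome 16, outside any listed gene, and one of them (chr16:46390264, plus strand, C) was marked in 19 libraries, 8 solvent, 9 TMZ and 2 naked DNA, the most of any position. Another 5 lay within 93470489 to 93470628 on chromosome 3. In genes, a T at chr6:30908499 (minus strand) in GTF2H4, a subunit of the transcription and repair factor TFIIH, was marked in 14 libraries. A T at chr3:129591832 (plus strand) in PLXND1, a semaphorin receptor, was marked in 13, 7 solvent and 6 TMZ libraries. Recurrent positions were found in solvent and TMZ libraries alike. Libraries of 1 set have sites in common across treatments, and recurrence was not counted per set. No sequence is given for positions outside promoter windows, since no genome was used here.

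**Figure D1:**
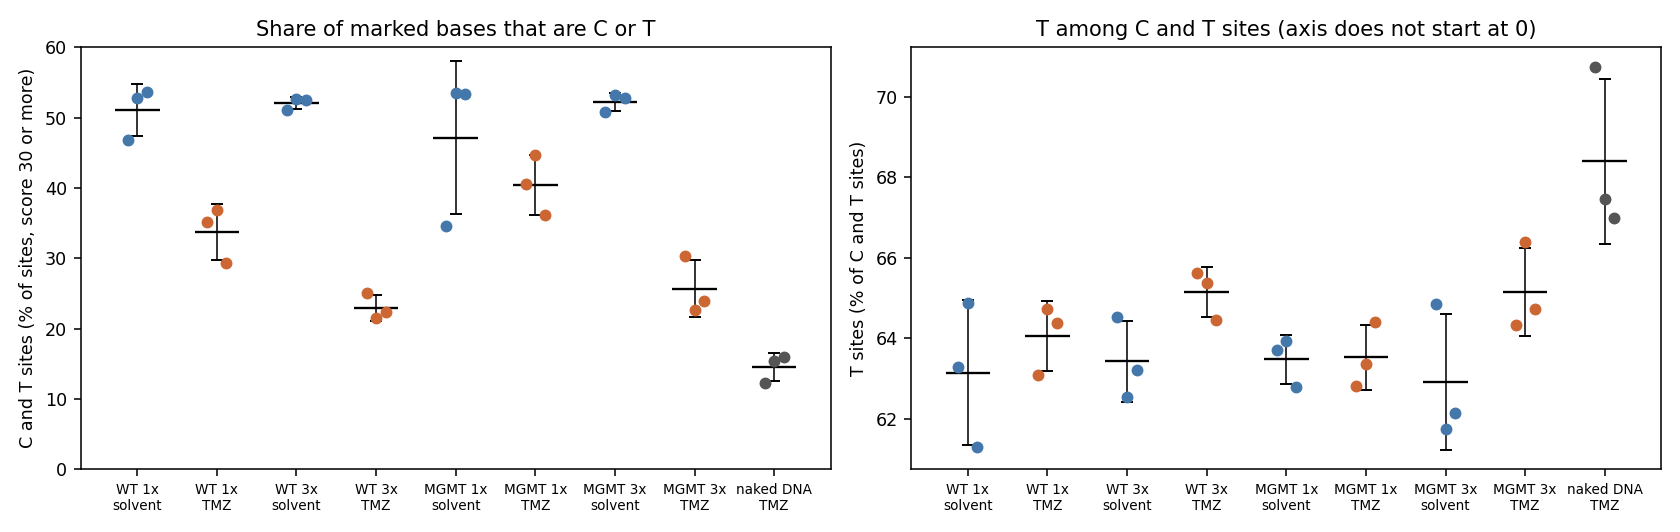
Share of marked sites that were C or T (left, % of autosomal sites with a score of 30 or more) and share of T among them (right, %), by group; points are libraries, lines the mean and bars the SD of 3 libraries. After 3 exposures the TMZ libraries lie between 21.5% and 30.3% on the left and the solvent libraries between 50.8% and 53.2%.

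The first comparison asked how large the background was beside the other bases. In solvent libraries C and T made up about as many sites as A and G together, 50.6% ± 5.41 (SD, n = 12), with T at 32.01% ± 3.36 and C at 18.6% ± 2.2. In TMZ cell libraries they made up 30.7% ± 7.86 (n = 12), with T at 19.7% ± 4.81 and C at 10.97% ± 3.06, while G stood at 51.2% ± 10.8 against 22.7% ± 7.11. The C and T share fell by 19.9 points (exact permutation test within genotype and exposure number, adjusted p = 0.000713 over 19 comparisons). The shares of the 4 bases sum to 100%, so a higher G share goes with a lower share of the other bases, and no share shows a number of sites lost or gained.

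In WT cells with 3 solvent exposures the C and T share was 51.1%, 52.5% and 52.6%, and with 3 TMZ exposures it was 21.5%, 22.4% and 25.02%. In MGMT-transfected cells it was 50.8%, 52.7% and 53.2% with solvent and 22.7%, 24.0% and 30.3% with TMZ. The treatments did not overlap in either line. After 1 exposure WT libraries had 46.8%, 52.8% and 53.6% with solvent and 29.3%, 35.1% and 36.9% with TMZ, again without overlap. MGMT-transfected libraries overlapped after 1 exposure, at 34.5%, 53.4% and 53.5% with solvent and 36.2%, 40.6% and 44.7% with TMZ. In the 3 sets with both treatments the difference was -2.82 points in the first, which holds the library that stood apart, -17.8 in the second and -27.2 in the third. Cell libraries of the first set had 1 exposure only, and in the third 3 exposures were more frequent among TMZ than among solvent libraries. Within-set differences of TMZ and solvent, here and below, do not allow for exposure number. Without replicate 1 after 1 exposure it was -23.3 points (adjusted p = 0.00264, permutation test), and without replicate 3 it was -17.3 and no longer passed (adjusted p = 0.0586, permutation test).

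Under TMZ, 3 exposures gave a lower C and T share than 1, 24.3% ± 3.19 against 37.1% ± 5.21 (n = 6 each). This difference of -12.8 points passed (exact permutation test, adjusted p = 0.0238), but its p of 0.005 is the smallest these labels allow, and with any replicate number left out the test could not pass. Over differences of same-numbered libraries it did not pass (exact sign-flip permutation test, adjusted p = 0.0714), where the smallest p is 0.0312, and the numbers did not tie libraries across exposures. Within the second set it was -13.1 points and within the third set -10.1 points. MGMT-transfected cells had 33.1% ± 8.93 and WT cells 28.4% ± 6.54 under TMZ (difference 4.69 points, exact permutation test, adjusted p = 0.095), and 49.7% ± 7.49 and 51.6% ± 2.49 with solvent (adjusted p = 0.911, permutation test). Neither genotype difference passed. Under TMZ the MGMT library had the higher share in 6 of 6 same-numbered pairs, by 1.22 to 7.76 points (exact sign-flip permutation test, adjusted p = 0.0714; 0.0312 before adjustment, the smallest it can give). Naked DNA had the lowest share, 12.2%, 15.5% and 15.9%, below every cell library. Its difference from WT TMZ cells was -13.9 points (exact permutation test, adjusted p = 0.0475; -11.3 and adjusted p = 0.181 without naked DNA replicate 1 and replicate 1 after 1 exposure). With those left out the smallest p is 0.0476 before adjustment, and with any replicate number left out 0.0667, so a lost call says nothing about stability.

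C and T sites were also counted per A site, a value that leaves G sites out. On the log2 scale solvent libraries had 0.92 ± 0.09 and TMZ cell libraries 0.74 ± 0.14 (n = 12 each), or -0.18 (exact permutation test, adjusted p = 0.0134). TMZ lay below solvent without overlap in WT cells after 1 and 3 exposures and in MGMT-transfected cells after 3. Within sets it was 0.071, -0.14 and -0.31, so the direction did not hold in the first set. Without replicate 2 it was -0.15 and without replicate 3 it was -0.15, and neither passed (adjusted p = 0.176 and 0.143, permutation tests). Naked DNA stood at -0.19 ± 0.24 (n = 3) against 0.70 ± 0.10 in WT TMZ libraries, a difference of -0.89 (exact permutation test, adjusted p = 0.0323; -0.73 and adjusted p = 0.113 without the replicate 1 libraries named above). A sites are no neutral base of comparison, as their own offsets below show.

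T was the more frequent of the pair in every library. It made up 63.2% ± 1.19 of C and T sites with solvent and 64.5% ± 1.04 with TMZ (n = 12 each), a rise of 1.23 points (exact permutation test, adjusted p = 0.0419). Solvent and TMZ libraries overlapped in all 4 strata, and the difference within sets was -0.553, -0.0376 and 2.86 points in the first, the second and the third. Over differences of same-numbered libraries it did not pass (exact sign-flip permutation test, adjusted p = 0.0732). Leaving out any 1 replicate number ended the call, with values of 0.776 to 1.92 points. Naked DNA had 68.4% ± 2.05 (n = 3), 3.79 points above WT TMZ libraries (exact permutation test, adjusted p = 0.0323), and 2.31 points without the replicate 1 libraries (adjusted p = 0.113, permutation test).

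The next comparison asked where C and T sites lay relative to guanines marked in naked DNA exposed to TMZ. The series has no naked DNA with solvent alone, so how many of those G sites are background is unknown. For each C or T the same strand was searched for a G marked in any naked DNA library, at each offset from -10 (5′) to +10 (3′), and the share with such a G was divided by the mean share at offsets of 21 to 50 bases. Naked DNA libraries were read against the other 2 only. C and T sites lay directly 3′ of such guanines more often with TMZ than with solvent. For T at offset -1 the log2 enrichment was -0.056 ± 0.11 with solvent and 0.58 ± 0.26 with TMZ (n = 12 each), that is 0.962 and 1.5 times the flanking level.

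**Figure D2:**
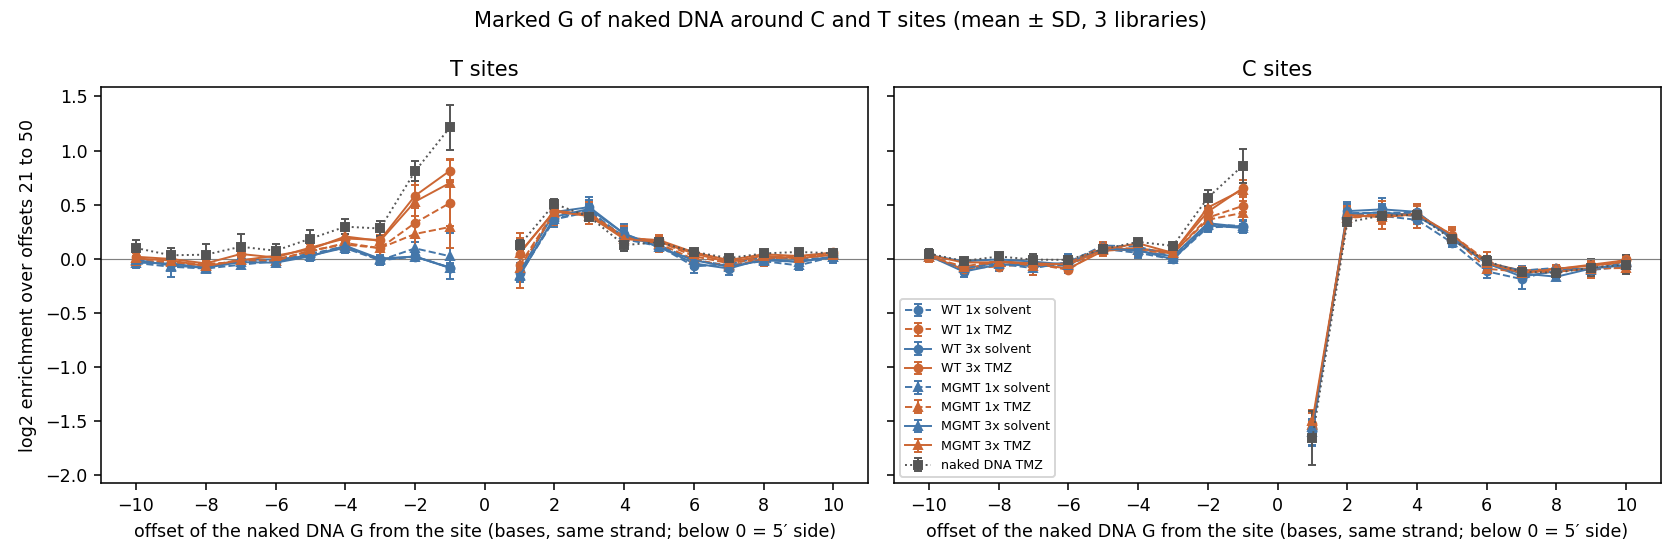
Log2 enrichment of a naked DNA G at each offset from marked T (left) and C (right) over its level at offsets 21 to 50, mean ± SD of 3 libraries per group. T with TMZ rises above solvent at offsets -1 and -2, and C at offset +1 lies between -1.66 (naked DNA) and -1.497 in the group means.

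With 3 exposures, T at offset -1 had 0.71, 0.81 and 0.92 in WT TMZ libraries and -0.10, -0.093 and -0.053 in WT solvent libraries. In MGMT-transfected cells the values were 0.49, 0.70 and 0.92 with TMZ and -0.097, -0.088 and -0.070 with solvent. No TMZ library overlapped a solvent library in these 4 groups. With 1 exposure WT cells had 0.28, 0.59 and 0.68 against -0.12, -0.093 and -0.035, again apart. MGMT-transfected cells had 0.076, 0.36 and 0.44 with TMZ and -0.12, -0.085 and 0.27 with solvent, where the library that stood apart, at 0.27, overlapped. Naked DNA had the highest values, 1.07, 1.13 and 1.45.

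**Figure D3:**
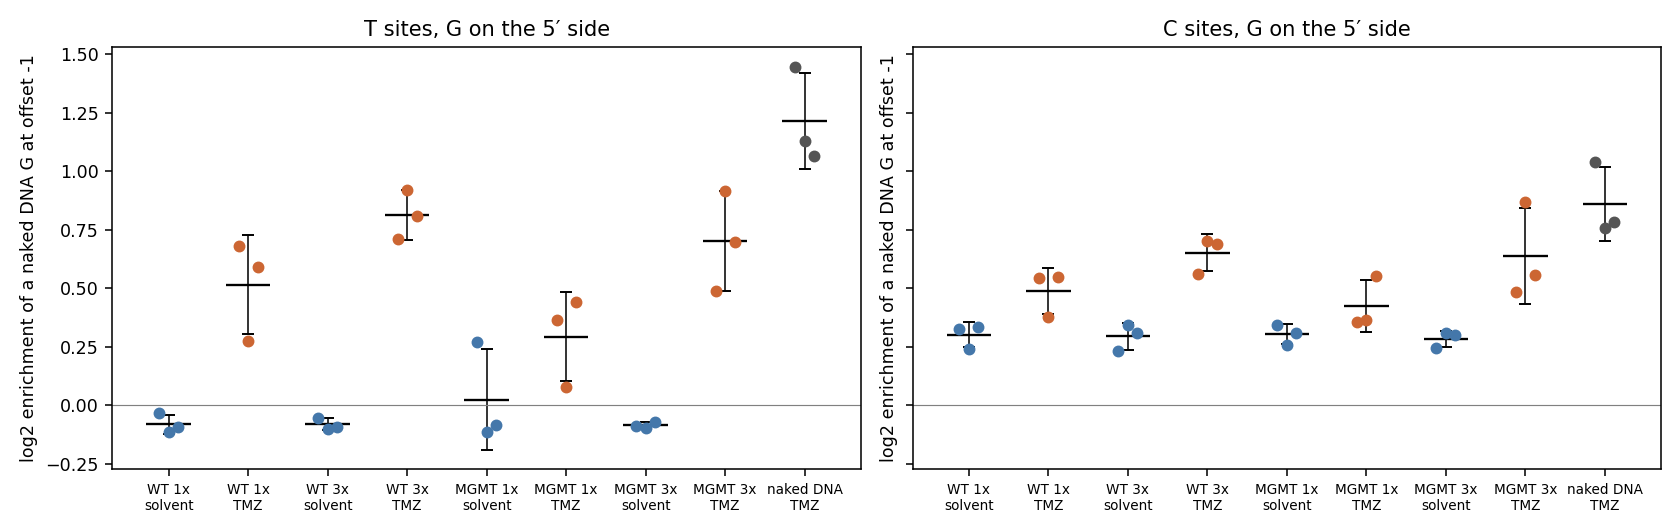
Log2 enrichment of a naked DNA G directly 5′ of marked T (left) and C (right), by group; points are libraries, lines the mean and bars the SD. For C the lowest TMZ library, 0.36, lies above the highest solvent library, 0.34.

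The difference for T was 0.64 (exact permutation test, adjusted p = 0.000275 over 22 comparisons added after values were seen), and 0.40, 0.48 and 0.82 within the 3 sets. For C it was smaller, 0.55 ± 0.15 against 0.30 ± 0.042, a rise of 0.25 (exact permutation test, adjusted p = 0.000275). TMZ and solvent did not overlap for C in any of the 4 strata. In absolute terms few sites had such a neighbour, 0.77%, 0.857% and 0.911% of T in WT cells after 3 TMZ exposures and 0.419%, 0.436% and 0.438% with solvent. The flanking level in those TMZ libraries was 0.471% to 0.489%, so these shares depend on how many guanines the naked DNA libraries list. They do not give the share of sites next to any G that TMZ can methylate.

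More exposures went with a higher level. Under TMZ, T at offset -1 had 0.76 ± 0.16 after 3 exposures and 0.40 ± 0.22 after 1 (n = 6 each, difference 0.35, exact permutation test, adjusted p = 0.01). C had 0.64 ± 0.14 and 0.46 ± 0.10 (difference 0.19, exact permutation test, adjusted p = 0.0338). MGMT-transfected cells had 0.50 ± 0.29 and WT cells 0.66 ± 0.22 for T under TMZ, a difference of -0.17 that did not pass (exact permutation test, adjusted p = 0.198), although the MGMT library was lower in 6 of 6 same-numbered pairs. For C the genotypes had 0.53 ± 0.19 and 0.57 ± 0.12 (adjusted p = 0.636, permutation test).

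Across C and T together, 7 of 20 offsets passed (exact permutation tests adjusted over 20): -4, -3, -2, -1, +1, +6 and +9. The differences of TMZ and solvent were 0.045, 0.10, 0.27, 0.48, 0.13, 0.047 and 0.036 in that order. The count was 3 without replicate 2 or without replicate 3, and 3 with flanks of 51 to 100 bases; offsets -3 to -1 kept their call with every replicate number left out. At +2 and +3 a naked DNA G was enriched by 0.42 and 0.40 with TMZ and by 0.40 and 0.44 with solvent, differences that did not pass (adjusted p = 0.515 and 0.223, permutation tests). Solvent libraries thus showed the enrichment at these 3′ offsets too. Over offsets -3 to +3 the log2 level was 0.28 ± 0.11 with TMZ and 0.12 ± 0.036 with solvent (n = 12 each, exact permutation test, adjusted p = 0.000713), without overlap in 3 of 4 strata. Without replicate 3 the difference was 0.15 and did not pass (adjusted p = 0.0586, permutation test). With guanines of the same library as reference it had the opposite sign and did not pass, as given below.

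C next to a 3′ G lay below the flanking level. At offset +1 the log2 level of C was -1.53 ± 0.092 with TMZ and -1.58 ± 0.092 with solvent, and -1.66 ± 0.25 in naked DNA, so a marked C was followed by a naked DNA G at 0.346 and 0.334 times the flanking level in TMZ and solvent cell libraries. The TMZ difference there did not pass (adjusted p = 0.542, permutation test). CpG is scarce in the human genome and the flanking level does not allow for it; against all promoter C positions, given below, marked C was followed by G more often. A sites were read the same way for comparison. For A at offset -1 WT cells after 3 exposures had -0.095 ± 0.010 with solvent and 0.52 ± 0.070 with TMZ (n = 3 each), so A sites also lay apart on the 5′ side. At offset +1 A had 1.25 ± 0.060 and 2.003 ± 0.20. The differences between A and C or T were not tested.

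The sign of the difference depended on the reference guanines. When G sites of the same library replaced those of naked DNA, the difference of TMZ and solvent over offsets -3 to +3 was -0.36 on the log2 scale (adjusted p = 0.234, permutation test), and at offset -1 it was -0.062 (adjusted p = 0.88, permutation test). At offset +1 the difference was -1.18 (adjusted p = 0.00025, permutation test over 20 offsets). For T, the level at -1 minus that at +1 was then 0.75 ± 0.31 under TMZ and -0.30 ± 0.47 with solvent (n = 12 each, exact permutation test, adjusted p = 0.000321). With naked DNA guanines solvent libraries had -0.056 at -1 and -0.14 at +1, so their order reversed with the reference.

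Reference sequence around promoter sites gave the neighbours without any marked G. There were 113409 C and T sites in promoter windows, 829 to 8776 per library. G stood directly 5′ of T at 20.6% ± 1.79 of sites with solvent, near the 21.1% of all promoter T positions, and at 26.2% ± 2.78 with TMZ (n = 12 each). G was more frequent with TMZ at all 20 offsets of both bases, by a mean of 2.57 points for T and 2.49 for C over offsets 4 to 10 bases away. At -1 of T the rise of 5.63 points passed (exact permutation test, adjusted p = 0.000321). Less the distant mean of each library it was 3.06 points and passed (exact permutation test, adjusted p = 0.0036 over 4 such tests added after values were seen). In the same place naked DNA had 33.6% ± 4.35 (n = 3). G directly 5′ of C rose from 33.2% ± 1.44 to 36.8% ± 1.93, with 29.9% among all promoter C positions (exact permutation test, adjusted p = 0.000764). Less the distant mean this was 1.11 points and did not pass (exact permutation test, adjusted p = 0.0586).

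On the 3′ side solvent libraries already differed from the promoter average. G followed C at 33.4% ± 1.79 of sites with solvent against 18.97% of all promoter C positions, and T at 36.2% ± 1.6 against 30.03%. Shares of 3-base contexts were taken among C sites and among T sites apart. In solvent libraries ACG, TCG and GCG were 1.98, 1.86 and 1.82 times their share among all promoter C positions. In TMZ libraries G followed C at 37.9% ± 2.62 and T at 40.3% ± 3.84, rises that passed (exact permutation tests, adjusted p = 0.000378 and 0.00729). Less the distant mean they were 2.02 points for C, which passed, and 1.48 for T, which did not (exact permutation tests, adjusted p = 0.0204 and 0.151). The contexts furthest above solvent in naked DNA were GTA, GTT and GTC, at 2.1, 1.72 and 1.54 times their solvent share of T sites. In TMZ cell libraries these 3 were 1.4, 1.29 and 1.3 times the solvent share. Promoters are GC-rich, and these values hold for promoter windows alone.

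The last comparison asked where along the chromosomes C and T sites lay. In 1 Mb bins WT solvent libraries with 3 exposures had a median of 206, 260 and 511 sites; densities below are scaled to library size. Bins with 20 or more protein-coding genes had 1.09 to 1.11 times the median density of bins without genes in WT solvent libraries with 3 exposures, and 1.47 to 1.71 times with TMZ. In MGMT-transfected cells the ratios were 1.05 to 1.17 and 1.38 to 1.63, and in naked DNA 1.38 to 1.65. After 1 exposure the treatments overlapped in both lines, and the solvent libraries of replicate 1, the shallowest at a median of 100 and 108 sites per bin, had 1.37 and 1.38.

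**Figure D4:**
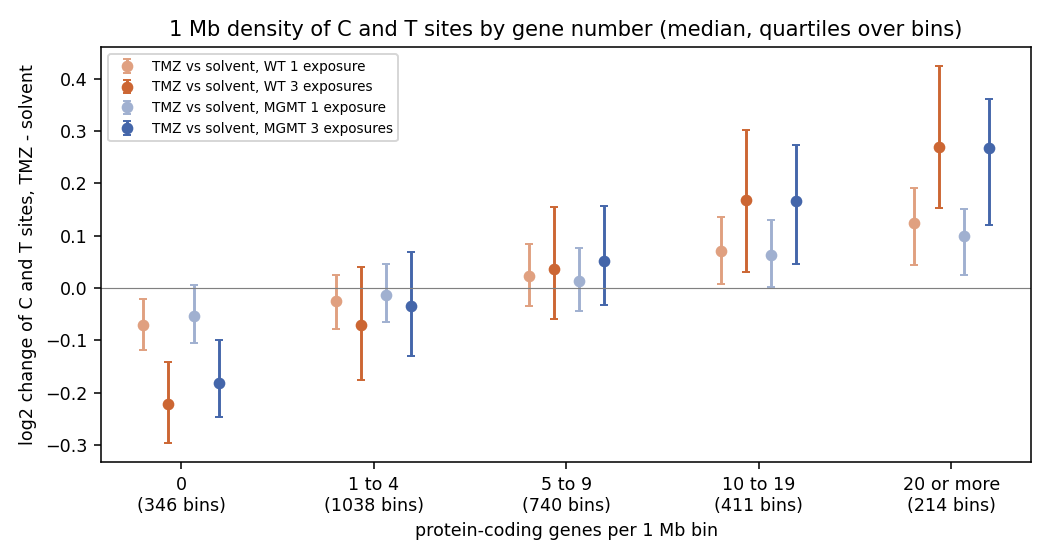
Log2 change of the density of C and T sites in 1 Mb bins, TMZ minus solvent, by number of protein-coding genes per bin; points are medians over bins and bars run from the lower to the upper quartile. After 3 exposures the medians climb from -0.22 (WT) and -0.18 (MGMT) in bins without genes to 0.27 in both lines in bins with 20 or more.

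Fitted with limma's voom over 2749 bins, 1486 bins (54.1%) changed with TMZ on the mean of the 4 strata, 800 higher and 686 lower. Of the 2749 bins, 13 were called and kept TMZ and solvent libraries apart within each of the 4 strata, 4 higher and 9 lower. With the 3-exposure strata read alone, 571 higher and 508 lower were called without overlap in WT cells. In MGMT-transfected cells these were 568 and 326. After 3 exposures 1125 bins (40.9%) changed in WT cells, 588 higher and 537 lower, and 942 (34.3%) in MGMT-transfected cells, 594 higher and 348 lower. With the total number of C and T sites as library size the splits were 666 higher and 911 lower, 486 and 684, and 452 and 552, so the balance of directions depended on the scaling. Without replicate 3 the counts after 3 exposures were 216 in WT and 8 in MGMT-transfected cells, and without replicate 2 the WT count was 668 and without replicate 1 the MGMT count was 473. After 1 exposure 0 bins (0%) changed in either line (limma), with 259 in WT and 254 in MGMT-transfected cells at an unadjusted p under 0.05 and 0 in the limma-trend fit with other sizes. Same-numbered TMZ and solvent libraries deviated together after 1 exposure. A fit blocked on replicate number called 6 bins in WT cells, all higher, and 0 in MGMT-transfected cells (limma, with 185 at an unadjusted p under 0.05).

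After 3 exposures 735 bins changed in both lines, 65.3% of the WT list and 78.0% of the MGMT list, all in the same direction. The lines share no library, but their same-numbered libraries lie in the same sets, and in both lines replicate 3 has TMZ in the third set and solvent in the fourth. Without replicate 3 the lists had 4 bins in common, against 399 without replicate 1 and 464 without replicate 2. The median changes by gene number ran in parallel, from -0.22 without genes to 0.27 with 20 or more in WT cells and from -0.18 to 0.27 in MGMT-transfected cells. After 1 exposure they ran from -0.070 to 0.12 and from -0.054 to 0.099. The difference between 3 and 1 exposures passed in 3 bins (0.109%), all lower, with 651 at an unadjusted p under 0.05 (limma). With the replicate number within exposure number as a block it passed in 404 bins, 271 higher and 133 lower (limma). It passed in 120 bins without replicate 1 after 1 exposure, in 22 without any replicate 1, in 61 without replicate 2 and in 0 without replicate 3. The difference of the TMZ effect between the lines passed in 0 bins (0%), with 80 at an unadjusted p under 0.05 (limma), and in 0 in the limma-trend fit.

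The bin with the smallest adjusted p after 3 exposures lay, in both lines, at chr21:7000001-8000000 and held 5 protein-coding genes named by LOC numbers alone. In WT cells its density, in normalised sites per 1000000 C and T sites, was 112, 135 and 143 with solvent and 46.03, 48.8 and 64.6 with TMZ, without overlap, as the rule for naming bins required. In MGMT-transfected cells it was 132, 138 and 142 with solvent and 51.9, 63.0 and 72.9 with TMZ. The log2 changes were -1.26 (SE 0.14, adjusted p = 2.19e-06, limma) and -1.10 (SE 0.13, adjusted p = 3.51e-06, limma). With no minimum score the second was -0.40 and did not pass (adjusted p = 0.111, limma). Among bins that gained, chr22:46000001-47000000 holds 11 protein-coding genes, among them PPARA, a nuclear receptor of lipid metabolism, and CELSR1, a planar polarity cadherin. Its WT density was 412, 448 and 456 with solvent and 607, 643 and 692 with TMZ, a log2 change of 0.56 (SE 0.088, adjusted p = 0.000213, limma). In chr1:22000001-23000000, with CDC42, a small GTPase, and WNT4, the change was 0.48 (SE 0.078, adjusted p = 0.000225, limma). In MGMT-transfected cells chr9:127000001-128000000, with 23 genes, rose by 0.55 (SE 0.090, adjusted p = 0.000655, limma), and chr13:56000001-57000000, with no protein-coding gene, fell by 0.45 (SE 0.074, adjusted p = 0.000655, limma). Without replicate 3 these were 0.43 and -0.43 and did not pass (adjusted p = 0.0553 and 0.0506, limma).

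The map of C and T was also set beside that of marked guanines. Across the 2749 bins the mean density of C and T correlated with that of naked DNA G sites at r = 0.70 (Spearman 0.62) in WT solvent libraries with 3 exposures and at r = 0.94 (Spearman 0.93) in WT TMZ libraries. In MGMT-transfected cells it was r = 0.67 (Spearman 0.61) and r = 0.88 (Spearman 0.88), and for C and T of naked DNA itself, from the same libraries, r = 0.96 (Spearman 0.96). For each bin the log2 ratio of G to C and T sites of naked DNA was also taken. The change with TMZ after 3 exposures correlated with this ratio at r = 0.82 in WT and 0.80 in MGMT-transfected cells. With protein-coding genes per bin, r was 0.56 and 0.53. Bins are not independent and share libraries and base composition, so these values describe the maps only.

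**Figure D5:**
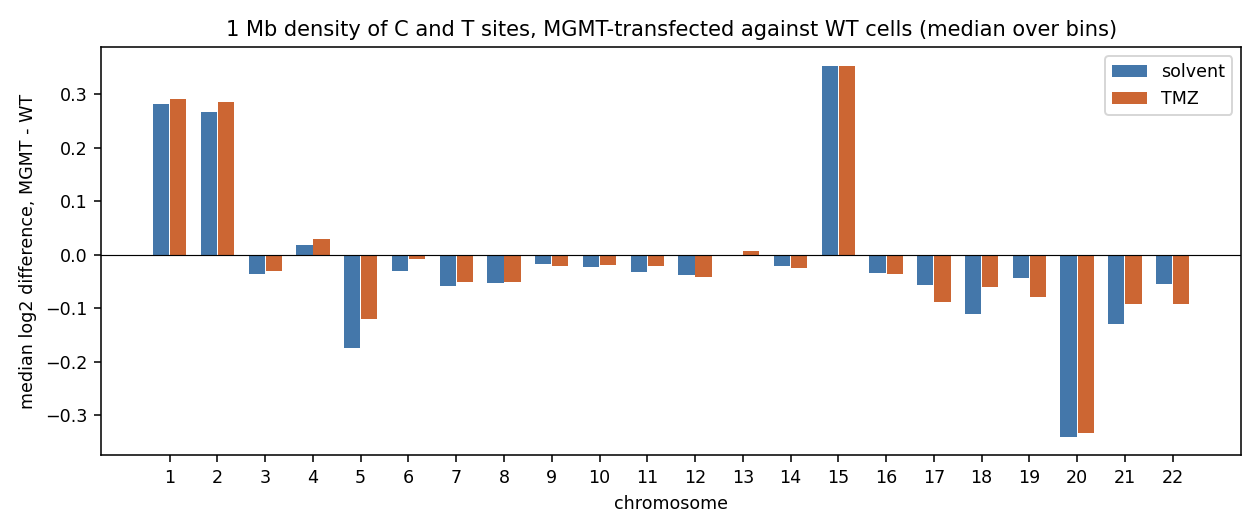
Median log2 difference of the 1 Mb density of C and T sites, MGMT-transfected minus WT cells, per chromosome, for solvent and TMZ libraries. Chromosomes 1, 2 and 15 lie highest and chromosomes 5 and 20 lowest; under both treatments 4 chromosomes lie above 0 and 17 below, most of them close to it.

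The background also told the 2 lines apart. With solvent 959 bins (34.9%) differed, 511 higher and 448 lower in MGMT-transfected cells, and with TMZ 948 (34.5%), 535 higher and 413 lower (limma). These comparisons share no library, though their libraries share sets, and 833 bins were called in both, 86.9% of the solvent list and 87.9% of the TMZ list, all with the same sign. The bins formed long runs. Chromosome 15 from 22000001 to 83000000 was higher in 61 bins in a row (median 0.38 with solvent and 0.38 with TMZ), and chromosome 1 from 1 to 97000000 in 97 bins (0.36 and 0.35). Chromosome 3 from 1 to 25000000 was lower in 25 bins (-0.46 and -0.47), and chromosome 7 from 92000001 to 121000000 in 29 (-0.42 and -0.43). Bins of marked G and A sites were not compared between the lines, so the difference is not shown to be particular to C and T. The numbers were scaled to library size and not corrected for the amount of DNA per region, whose part was not tested.

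At chr15:23000001-24000000, which holds the imprinted genes MKRN3, MAGEL2 and NDN, solvent libraries of MGMT-transfected cells had 327, 333, 346, 346, 358 and 362 normalised sites per 1000000 and those of WT cells 158, 166, 168, 177, 200.4 and 203. The lines did not overlap here, as the rule for naming bins required. Of 2749 bins, 336 higher and 207 lower were called without overlap under solvent. In this bin the log2 difference was 1.02 (SE 0.058, adjusted p = 2.47e-14, limma). At chr3:1000001-2000000, where CNTN6, a neuronal adhesion protein, is the one protein-coding gene, the solvent levels were 256 to 344 and 453 to 532, a difference of -0.73 (SE 0.049, adjusted p = 8.6e-13, limma). In both lines together the densest bins were chr11:78000001-79000000 and chr11:77000001-78000000, at 2.32 and 2.17 times the median bin, and 8 bins of chromosome 20 made up the rest of the first 10. Chromosome 20 had a median of 1.54 times the median bin over all cell libraries and was lower in MGMT-transfected cells by a median of 0.34 with solvent and 0.33 with TMZ on the log2 scale.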

How the data were processed

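The files list marked sites. Each line gives chromosome, position, strand, base and a score of 0 to 42 as deposited by the authors, who do not state in the sources used here what the score measures. Per the submitters' processing notes the tools were FastQC 0.11.9, Trimmomatic 0.38 and 0.39, cutadapt, Bowtie2 2.3.5.1, GATK 4.2.0.0, SAMtools 1.12 and bedtools 2.29.2, with build GRCh38. No library lists a position and strand more than once, so the numbers are distinct sites, not reads, and how often a library marked a place is unknown. Positions are counted from 1.

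Library values were tested by enumerating all label permutations inside strata of the other factors (two-sided exact permutation tests; Python 3.11.15, numpy 2.4.6), with Benjamini-Hochberg adjustment over 19 comparisons, 20 offsets, or 22 comparisons added after values were seen. On made-up data for MGMT against WT under TMZ, 400 sets per size, the test called 6.25% without a difference and 99.5% with one of 3 SD. Bins of 1000000 bases with 10 or more sites in 3 or more cell libraries were fitted as group means over 24 libraries with voom in limma 3.58.1 (R 4.3.3) and trimmed-mean sizes. On made-up counts for the mean of the 4 strata, all of 200 altered bins among 2749 were recovered (100%), with 8 false among 208 calls. Those counts had independent noise, no shared sets, and changes larger than the real median absolute log2 change of 0.0917. The figures therefore do not give error rates for the real libraries, and no other bin comparison was tried. The threshold was an adjusted p of 0.05.

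The members, lists and tests were chosen with earlier results of these data known. Named bins were up to 3 per direction and comparison, by smallest adjusted p among those whose replicates did not overlap, and genes came from RefSeq GRCh38.p14. Whether same-numbered libraries deviate together over bins was checked per comparison. Between TMZ and solvent after 1 exposure all 6 correlations exceeded 0.1 (0.12 to 0.65), so the numbers pair those libraries. After 3 exposures 2 of 6 did and between exposures 1 of 12, so there they were not taken to pair libraries. Between genotypes 8 of 12 did (-0.062 to 0.48), so the numbers pair those libraries in part. The main genotype tests left this pairing out. A sign-flip test over same-numbered pairs is given for the C and T share under TMZ. Alternatives changed the score limit, reference guanines, flanks, library sizes, bin filter, recurrent sites and libraries included.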

Additional observations from a re-analysis of the deposited data

Results flagged for a closer look

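Of 6 measures, the TMZ effect differed between 3 and 1 exposures in 2, the C and T share and T at offset -1. It was tested by exact permutation of the exposure labels within genotype and treatment, adjusted over 12 such differences, with 6 libraries per treatment and exposure number. The C and T share differed between TMZ and solvent by -27.8 points after 3 exposures and by -11.98 points after 1, a difference of -15.9 points (permutation test, adjusted p = 0.0188), in a share that sums to 100% with those of A and G. The log2 enrichment of a naked DNA G directly 5′ of T was higher with TMZ by 0.84 after 3 exposures and by 0.43 after 1, a difference of 0.41 (permutation test, adjusted p = 0.0206). The other 4 did not pass (permutation tests): 0.20 for a naked DNA G directly 5′ of C (adjusted p = 0.0557), -0.22 for C and T per A (0.0557), 0.11 for the level near G (0.164) and 1.49 points for the T share (0.164). The solvent library of MGMT-transfected cells that stood apart is among those with 1 exposure, and its part in these differences was not tested.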

How the results depend on the processing

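With 1 replicate number left out in turn, the C and T share differed by -23.3 to -17.3 points (TMZ against solvent), -14.5 to -9.85 (3 against 1 exposures), -3.11 to 0.316 (MGMT against WT, solvent) and -15.8 to -11.9 (naked DNA). The T share of C and T differed by 0.776 to 1.92, 1.02 to 1.93, -0.328 to 0.295 and 2.48 to 4.49 points, and C and T per A by -0.24 to -0.15, -0.26 to -0.13, -0.078 to 0.022 and -0.995 to -0.72, in the same order. The level near G differed by 0.148 to 0.175 (TMZ) and -0.0025 to 0.0035 (MGMT against WT, solvent). Called offsets numbered 3 to 6, and called bins 891 to 1333 (mean of 4 strata), 216 to 1067 (WT, 3 exposures), 8 to 788 (MGMT, 3 exposures) and 0 to 61 (3 against 1 exposures; the 0, without replicate 3, had 160 at an unadjusted p under 0.05, limma).

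Without replicate 1 after 1 exposure and naked DNA replicate 1, chosen after seeing the data, values were 0.208 (C and T share, MGMT against WT, solvent), -11.3 (naked DNA), 0.928 and 2.31 (T share, 3 against 1 exposures and naked DNA), -0.19 and -0.73 (per A, likewise) and -0.0043 (near G, MGMT against WT, solvent), with 8 offsets called. Bins then numbered 1445, 1197, 1041 and 120 in the order above.

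With no minimum score, naked DNA differed by -14.1 points in C and T share, T share by 1.33 (TMZ) and 1.77 (3 against 1 exposures), near G by -0.017 (MGMT against WT, solvent; -0.00052 at a score of 40 or more), offset +2 by -0.0055, and 0 bins were called for 3 against 1 exposures (limma, with 496 at an unadjusted p under 0.05; 2 by limma-trend with the score limit). With sites of 1 library alone these were -14.6, 1.15, 1.30, and -0.0014 near G, with 12 offsets and 18 bins.

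With G sites of the same library, near G was -0.36 (TMZ), -0.24 (3 against 1 exposures), 0.12 and -0.18 (MGMT against WT, TMZ and solvent), and offsets -4 to -1 were -0.23, -0.30, -0.14 and -0.062, offsets +1, +2, +6 and +9 -1.18, -0.37, -0.053 and -0.0099. Flanks of 51 to 100 bases left 3 offsets. Median-of-ratios sizes gave 622 bins (MGMT, 3 exposures), and total sizes 41 (3 against 1 exposures).

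The best-correlated partner carried the same replicate number in 33 of 48 cases, a hint from the data. As a block the numbers gave -12.8 points for C and T share after 3 against 1 exposures (exact sign-flip permutation, adjusted p = 0.0714), 1.23 and 1.35 for T share, and -0.20 per A, none passing; the smallest p of those for 3 against 1 exposures is 0.0312. The block ended no other call. With the replicate block 6 bins were called for WT after 1 exposure and 404 for 3 against 1 exposures.

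The smallest p these designs allow, 0.005 for 6 against 6 libraries and 0.0119 for naked DNA (0.0667 with a replicate number left out), limits those tests. For the 24 bins chosen by the naming rule (30 with their comparisons, of which the text gives a few), 300 of 300 values under alternatives kept their direction and 4 lost their call. The rule took only bins whose replicates did not overlap in these same libraries. Their kept directions were thus largely fixed by the choice and do not measure stability. The cause of the changes under alternatives was not tested. Depth limits bins of the shallowest libraries, at a median of 100 sites.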
